A study of Drosophila melanogaster with 25 samples.

Results

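The synaptic vesicle and active zone genes of *Drosophila melanogaster* were described here in single cells sorted from the adult brain, in clock cells and dopaminergic neurons (DANs) profiled by 10X Chromium and in DANs profiled by CEL-seq2. The 31 members were named by their role in transmitter release, not by their level, and 30 of them had a row among the 17087 genes of the count table. *stnA* had none. Levels are given in TP10K, the number of UMIs (molecule-tagged transcript counts) that fall on a gene out of every 10000 in the cells summed.

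At a presynaptic terminal, transmitter-filled vesicles dock at the active zone, a protein scaffold that also gathers calcium channels. Calcium binds to synaptotagmins on the vesicle, and SNARE proteins of the vesicle and the plasma membrane zip together and fuse them. Vesicle membrane is then taken back up by endocytosis and refilled. Clock neurons keep circadian time and release both neuropeptides and small transmitters, while DANs release dopamine, and both use this common machinery.

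Cells of a stable line carrying TH-GAL4 and Clk856-GAL4 together, which drive EGFP in DANs and in clock neurons, were profiled by 10X Chromium in 1 library at ZT14 and 1 at ZT02 (ZT, hours after lights on). TH-GAL4 cells alone were profiled by CEL-seq2, a plate method, in 4 libraries each at ZT02, ZT06, ZT14, ZT18 and ZT22 and 3 at ZT10. All flies were adults of both sexes kept in light-dark cycles, and EGFP-positive cells with a nuclear stain were sorted from brains dissected in the presence of inhibitors of neuronal activity. TH-GAL4 labels a subset of the DANs, and Clk856-GAL4 labels most clock neurons but few of the DN3 group, so cells outside both drivers were not sampled.

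A 10X cell was taken as a clock cell when *tim*, *vri*, *Clk* and *cry* together had 3 or more UMIs and *Vmat* 1 or fewer, and as a DAN when *Vmat* had 5 or more and *DAT* 1 or more. This gave 517 clock cells and 891 DANs at ZT14, and 509 clock cells and 1305 DANs at ZT02, while 1962 of the 5184 cells of the 10X libraries were in neither class. The median depth per cell was 10154 UMIs in clock cells and 8465 in DANs at ZT14, and 8300 in clock cells and 6486 in DANs at ZT02, and the libraries shared 0 cell barcodes. The 23 CEL-seq2 libraries held 1516 cells, 52 to 79 and 548486 to 1197517 UMIs per library, and 1155 of the cells passed the DAN gate. Because *tim* and *vri* differ by time of day, the clock gate can take in different cells at ZT14 and at ZT02.

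The classes were then described by marker genes, some of which had also set the gates. The dopaminergic genes (*ple*, *DAT*, *Vmat*, *Ddc*) summed to 10.2 TP10K in clock cells and 384 TP10K in DANs at ZT14. The clock genes (*tim*, *vri*, *Clk*, *cry*, *per*, *Pdp1*) summed to 198 TP10K in clock cells and 23.8 TP10K in DANs. Most of these genes were gate genes, so the sums are no independent check of the classes. Outside the gates were *ple*, *Ddc*, *Pdp1* and *per*. Their log2 fold changes, clock cells over DANs, were -6.56, -1.19, 2.77 and -0.78. *per* thus stood lower in clock cells, but was not called in the comparison of the classes below. A group of 127 cells with 10 or more UMIs of the glial genes *Gs2*, *Eaat1* and *nrv2* together is called glia-like here. It had 57 UMIs of a further glial gene, *moody*, but *repo* and *alrm*, which define most glia and astrocytes, were at 0 UMIs in it. These cells made up 59 of the 517 clock cells (11.4%) at ZT14 and 14 of the 509 (2.75%) at ZT02, so the comparison with DANs, the subsets and the ratios between times were also computed without them, while the shares of cells with a UMI below include them. Photoreceptor (*ninaE*) and muscle (*Mhc*) genes were at 0 UMIs in both classes. None of the 5 photoreceptor and 2 muscle genes listed was among the genes tested. The haemocyte genes *Hml* and *NimC1* had log2 fold changes of 4.67 and 3.80, clock cells over DANs. Neither was called in the comparison of the classes below.

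**Figure D1:**
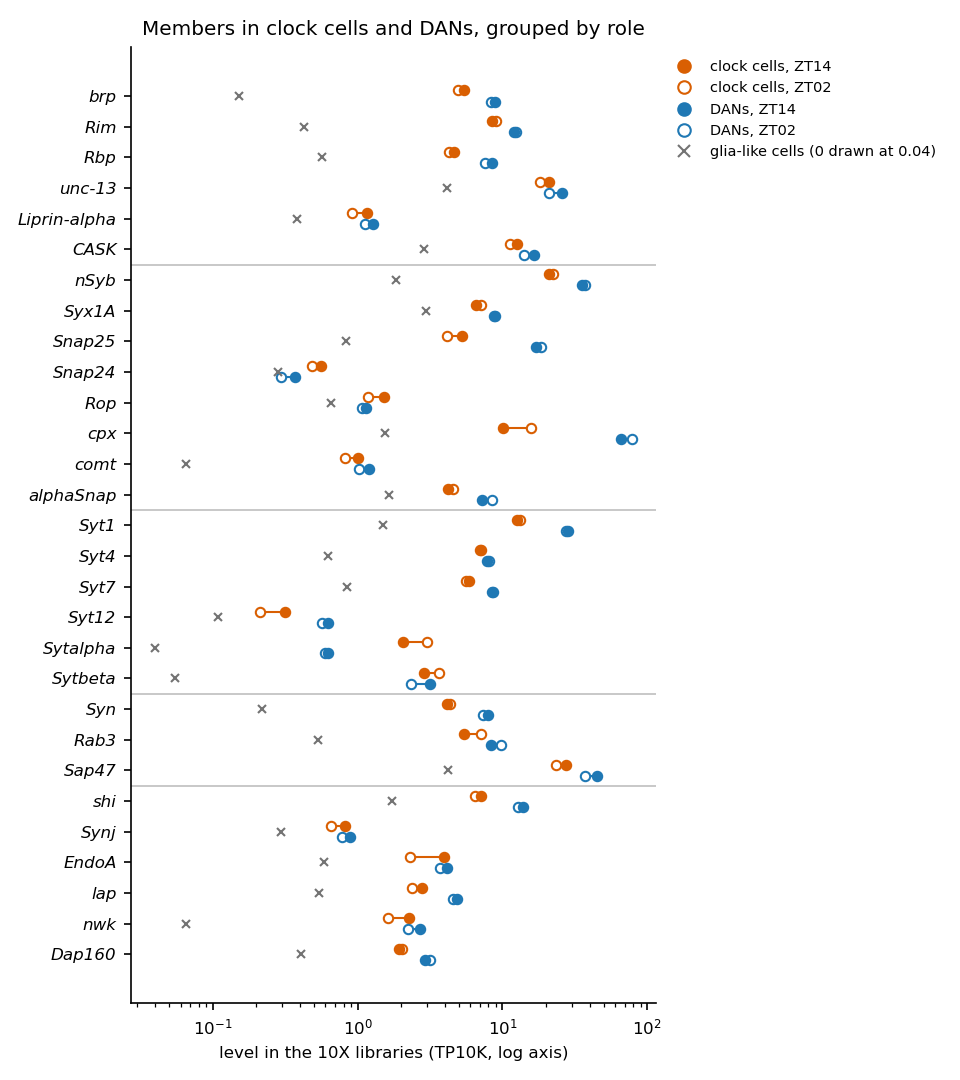
Level of each member in TP10K (log axis) in clock cells and DANs of the 10X libraries, ZT14 filled and ZT02 open, with crosses for the glia-like cells of both libraries (0 drawn at 0.04). Members are grouped by role. *cpx* was at 10.1 and 15.6 TP10K in clock cells at ZT14 and ZT02 and at 66.0 and 78.7 TP10K in DANs.

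All 29 members with UMIs in the 10X libraries were detected in both classes. In clock cells they summed to 190 TP10K at ZT14 and 188 TP10K at ZT02, in DANs to 350 and 348 TP10K, and in the glia-like cells to 30.1 TP10K. CEL-seq2 cells, mostly DANs, held 338 TP10K. General neuronal genes (*elav*, *fne*, *jeb*, *para*, *Cadps*) summed to 46.3 and 56.5 TP10K in clock cells at ZT14 and ZT02, against 84.9 and 77.2 TP10K in DANs. Their sum too stood lower in clock cells, but none of the 5 was called in the comparison of the classes below. *Cadps* is also among the other presynaptic genes listed below. Glial genes summed to 3.17 and 1.21 TP10K in clock cells and to 0.267 and 0.373 TP10K in DANs. Without glia-like cells the glial sum in clock cells was 0.357 and 0.565 TP10K, and the members' sum was 206 and 193 TP10K.

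Both protocols count the ends of transcripts, and UMIs were not divided by gene length, so levels are compared here between cells and not between genes. A pair of members depended on the method itself. *stnB*, whose product works in vesicle retrieval, had 0 UMIs in the 10X libraries but 16942 UMIs (9.04 TP10K) in CEL-seq2. In the BDGP6.54 annotation it shares all 8332 exon bases with *stnA*, with which it is made from a single dicistronic transcript (X:22980722-23004648, minus strand). *Syx1A*, the plasma membrane SNARE syntaxin, had 0 UMIs in CEL-seq2 against 21966 UMIs in the gated 10X cells. It lies at 3R:24101600-24105763 and shares 447 exon bases on the same strand with *eIF4EHP*, which also had 0 UMIs in CEL-seq2 and 8363 UMIs in the gated 10X cells. The cause of these zeros was not tested, and each gene was left out of the fits on the method where it was at 0.

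Clock cells were first compared with DANs within each 10X library, which asks how far 2 kinds of neuron differ in their release machinery. More members were lower than higher in clock cells. Of the 29 tested, 13 were called lower, 2 were called higher and 14 passed neither threshold (edgeR's quasi-likelihood F test on UMI sums with the library as a block, Benjamini-Hochberg adjusted p under 0.05 over 7747 genes and a change of at least 25%, or 20% where lower). Over all genes tested, 7.13% were called lower and 11% higher. The median log2 fold change of the members was -0.45, against 0.01 over all genes. Without scaling beyond UMI totals the members' median was -0.54 and that of all genes -0.08, and the genes called split into 695 higher and 709 lower in place of 852 and 552.

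**Figure D2:**
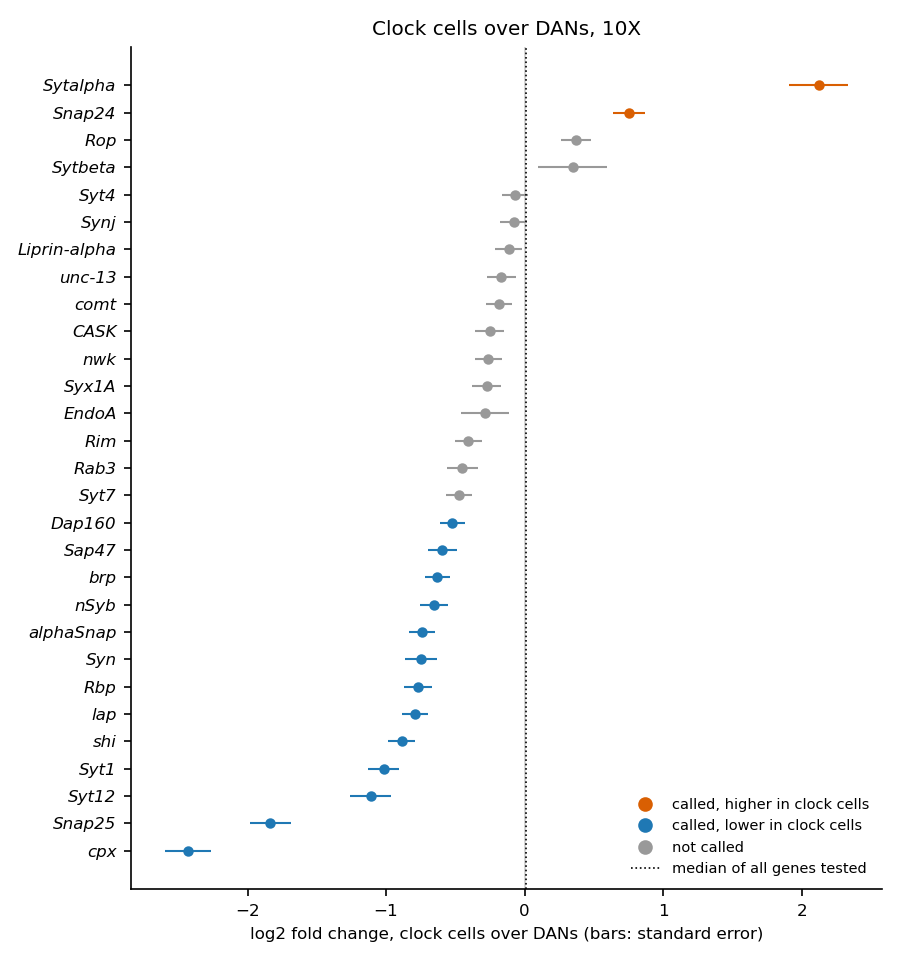
Log2 fold change of each member, clock cells over DANs, with bars for the standard error and a dotted line for the median of all genes tested. 15 of 29 members were called, from *cpx* at -2.43 to *Sytalpha* at 2.12.

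Of the SNARE proteins and their partners, 4 of 8 were lower and 1 higher, where 7.13% and 11% of all genes were. Where a class has a pair of values below, the value at ZT14 stands before that at ZT02. *cpx*, which encodes complexin, the clamp and activator of the assembled SNARE complex (3R:4280221-4304604), had 10.1 TP10K at ZT14 and 15.6 TP10K at ZT02 in clock cells, against 66.0 and 78.7 TP10K in DANs. Both clock sums were far below both DAN sums, and the log2 fold change was -2.43 ± 0.16 (SE, adjusted p = 0.0202), or -2.65 within ZT14 and -2.20 within ZT02. After each cell was thinned to 2000 UMIs, *cpx* was seen in 75.0% of clock cells and 98.7% of DANs at ZT14 and in 86.3% and 98.2% at ZT02. Glia-like cells, which should lack it, had a *cpx* UMI in 9.76% after thinning.

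*Snap25*, a plasma membrane SNARE, had 5.28 and 4.14 TP10K in clock cells at ZT14 and ZT02, against 17.1 and 18.5 TP10K in DANs. The groups did not overlap, and the log2 fold change was -1.83 ± 0.15 (adjusted p = 0.0224). Thinned, 57.3% and 47.9% of clock cells had a UMI of it at ZT14 and ZT02, against 96.2% and 93.6% of DANs and 6.50% of glia-like cells. Its relative *Snap24* ran the other way at a far lower level, with 0.559 and 0.487 TP10K in clock cells and 0.368 and 0.296 TP10K in DANs (log2 fold change 0.75 ± 0.11, adjusted p = 0.0370). Its thinned shares were 10.5% and 10.0% of clock cells, against 6.80% and 5.75% of DANs, where the glia-like cells had 7.32% (95% exact interval 3.40 to 13.4%), an interval that holds the shares of both classes.

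The vesicle SNARE synaptobrevin, *nSyb*, had 21.0 and 22.4 TP10K in clock cells, against 35.5 and 37.3 TP10K in DANs (log2 fold change -0.65 ± 0.10, adjusted p = 0.0387). *alphaSnap*, which helps to take spent SNARE complexes apart, had 4.19 and 4.57 TP10K in clock cells and 7.17 and 8.52 TP10K in DANs (log2 fold change -0.74 ± 0.09, adjusted p = 0.0304). The remaining 3 SNARE-related members were not called. *Rop*, the Munc18 protein that binds syntaxin, had a log2 fold change of 0.37, *comt*, the ATPase that works with *alphaSnap*, one of -0.18, and *Syx1A* one of -0.27.

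The synaptotagmins differed most among themselves. *Sytalpha* (2L:17592260-17604387) had 2.05 TP10K at ZT14 and 3.01 TP10K at ZT02 in clock cells, against 0.621 and 0.598 TP10K in DANs, with no overlap (log2 fold change 2.12 ± 0.21, adjusted p = 0.0248). Thinned, it was seen in 23.4% and 41.7% of clock cells and in 10.8% and 10.9% of DANs, and in 0 of 123 glia-like cells (95% exact interval up to 2.95%). Unthinned, those shares were 53.6% and 75.4% of clock cells and 21.998% and 19.8% of DANs.

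*Syt1*, the calcium sensor of fast release, went the opposite way from *Sytalpha*, with 12.6 and 13.2 TP10K in clock cells, against 28.4 and 27.3 TP10K in DANs (log2 fold change -1.02 ± 0.11, adjusted p = 0.0275). *Syt12* was low in both classes, at 0.314 and 0.212 TP10K in clock cells and 0.622 and 0.572 TP10K in DANs (log2 fold change -1.11 ± 0.15, adjusted p = 0.0318). *Syt4*, *Syt7* and *Sytbeta* were not called, with log2 fold changes of -0.07, -0.48 (adjusted p = 0.0523) and 0.35.

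Of the vesicle-associated members, *Sap47* and *Syn* were lower in clock cells. *Syn* encodes synapsin, which holds vesicles in reserve, and had 4.12 and 4.38 TP10K in clock cells, against 7.90 and 7.32 TP10K in DANs (log2 fold change -0.75 ± 0.12, adjusted p = 0.0388). *Sap47*, a synapse-associated protein, had 27.4 and 23.6 TP10K in clock cells and 44.8 and 37.4 TP10K in DANs (log2 fold change -0.59, adjusted p = 0.0443). The small GTPase *Rab3*, which tethers vesicles near the active zone, had a log2 fold change of -0.45 and was not called (adjusted p = 0.0731).

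Scaffold genes were closer between the classes than *cpx* or *Snap25*. *Rbp*, which links calcium channels to the release sites, had 4.595 and 4.26 TP10K in clock cells, against 8.52 and 7.60 TP10K in DANs (log2 fold change -0.77 ± 0.10, adjusted p = 0.0309). *brp*, the main builder of the T-shaped active zone density, had 5.47 and 4.94 TP10K in clock cells and 8.88 and 8.29 TP10K in DANs (log2 fold change -0.63 ± 0.09, adjusted p = 0.0365). The other 4 scaffold genes, *Rim*, *CASK*, *unc-13* (the vesicle priming factor) and *Liprin-alpha*, had log2 fold changes of -0.41 to -0.12 and were not called.

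Endocytosis genes gave 3 lower calls among 6 tested, where 7.13% of all genes were lower. *shi*, the dynamin that cuts vesicles off the membrane, had 7.07 and 6.51 TP10K in clock cells and 13.9 and 12.9 TP10K in DANs (log2 fold change -0.89 ± 0.10, adjusted p = 0.0275). *lap*, a clathrin adaptor, had 2.77 and 2.37 TP10K in clock cells, against 4.88 and 4.58 TP10K in DANs (log2 fold change -0.79 ± 0.09, adjusted p = 0.0290). *Dap160*, a scaffold protein of endocytosis, stood at -0.52 on that scale (adjusted p = 0.0425). *Synj*, *EndoA* and *nwk* were not called, at -0.08, -0.28 and -0.26.

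A wider list of 33 other presynaptic genes gave the same direction where it gave calls. Of the 32 tested, 5 were lower in clock cells and 0 higher by edgeR's quasi-likelihood F test, where 7.13% and 11% of all genes were. Their median log2 fold change was -0.18, against 0.01 over all genes. The list was chosen with earlier results of these data known. *Syngr*, the vesicle protein synaptogyrin, had 1.51 and 1.42 TP10K in clock cells, against 5.03 and 4.85 TP10K in DANs (log2 fold change -1.66, adjusted p = 0.0194). *Fife*, a Piccolo-RIM relative of the active zone, had 4.65 and 5.84 TP10K in clock cells and 13.3 and 15.3 TP10K in DANs (-1.36, adjusted p = 0.0224), and *Csp*, a vesicle chaperone, stood at -0.66 (adjusted p = 0.0353).

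These p-values rest on 4 sums from 2 libraries that also differ in time of day. Without the library as a block 9 members were called in place of 15, where 389 of 7747 genes were lower and 827 higher. *Snap24*, *nSyb*, *alphaSnap*, *brp*, *Sap47* and *Dap160* were lost. Without glia-like cells 2 members were higher and 13 lower, where 952 of 7521 genes were higher and 795 lower. In cells thinned to 2000 UMIs, the same test did not call *Syn* (adjusted p = 0.0526), *Sap47* (0.0674) or *Dap160* (0.307). Under stricter class gates *Dap160* was not called either (0.0506). The transmitter makeup of the classes differed as well, since *ChAT* and *VAChT*, which mark cholinergic neurons, were both called higher in clock cells. Of the octopaminergic or tyraminergic genes, *Tbh* was called higher there (log2 fold change 2.54) and *Tdc2* lower (-1.35). Of the serotonergic genes, *SerT* was called lower (-4.84) and *Trh* was not called.

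Members also varied among clock cells. Clock cells were split by marker genes that are no members, each cell going to the first marker it met in a fixed order, and each subset with at least 10 cells per library was compared with the mean of the others on the log scale with the library as a block. The order in clock cells was glia-like, *Pdf*, *Trissin*, *ITP*, *NPF*, *CCHa1*, *CNMa*, *AstA*, *AstC*, *Dh31* and *VGlut*. In DANs it was *Ms*, *NPF*, *AstCC*, *Dh31*, *AstC*, *VGlut*, *Nos*, *Fer2* and *DIP-beta*. *Trissin*, *ITP* and *Dh31* clock cells, and *NPF* and *AstCC* DANs, were too few to be compared. The glia-like subset had 28 of 29 members lower, where 21% of 6097 genes were lower, and *Snap24* was the exception. *cpx* had 6 and 0 UMIs in it at ZT14 and ZT02, and *nSyb* 13 and 0. In that fit, the other subsets were set against a mean that included the glia-like subset, and their members called higher numbered 9 in *Pdf* cells (8.71% of all genes), 8 in *NPF* (5.97%), 16 in *CCHa1* (6.48%), 11 in *CNMa* (7.94%), 12 in *AstA* (6.82%), 16 in *AstC* (6.33%) and 13 in *VGlut* cells (5.71%) and 10 in cells with no marker (13.8%). In the *Pdf* subset 2 members were lower, *Rop* and *shi* (3.21% of all genes), and neither was called without the library as a block (adjusted p = 0.129 and 0.115).

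**Figure D3:**
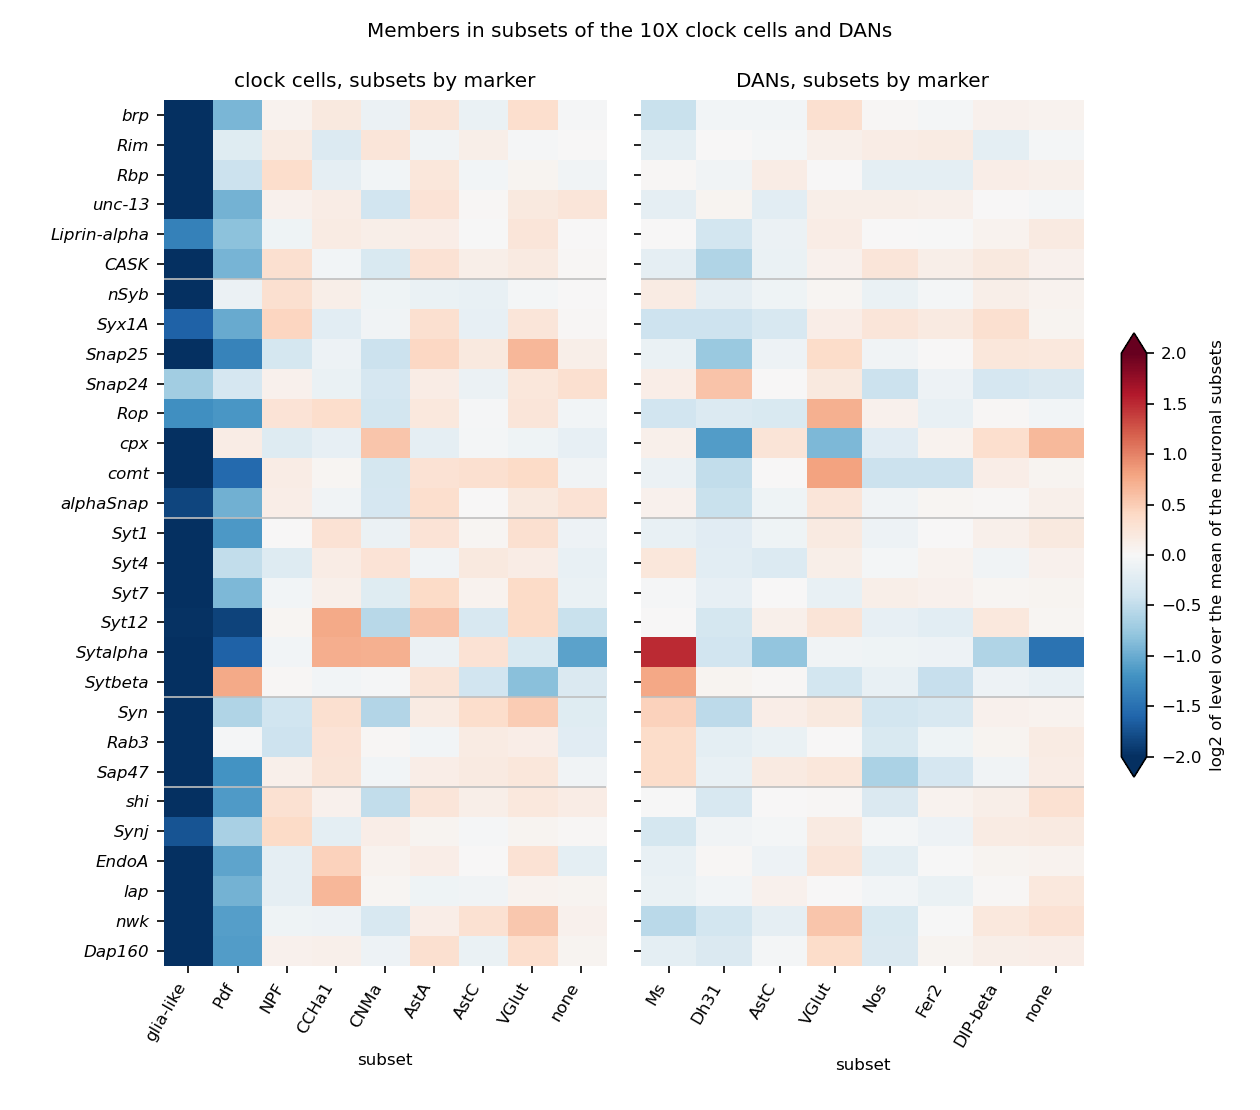
Level of each member in subsets of clock cells and of DANs named by marker, as the log2 of its level over the mean of the neuronal subsets of that class (colour scale from -2 to 2, arrows for values beyond it). The glia-like column is low throughout, the *Pdf* column is low for most members, and *Sytalpha* is high in *Ms* DANs.

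A fit without the glia-like subset, added after the data were seen, set the neuronal subsets against each other over 5634 genes. *Pdf* cells, the ventral lateral neurons that release the clock neuropeptide PDF, then stood apart. In them 14 of 29 members were lower (6.6% of all genes) and 2 were higher (8.68%), and the members summed to 125 TP10K at ZT14 and 130 TP10K at ZT02, against 198 to 230 TP10K at ZT14 and 185 to 225 TP10K at ZT02 in the other neuronal subsets. *Pdf* cells were also deeper, with a median of 13476 UMIs per cell against 8274 to 9556 in the others, and the part of depth in this was not tested. The subset held 24 cells at ZT14 and 44 at ZT02.

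*Snap25* had 2.21 and 1.43 TP10K in *Pdf* cells, against 4.06 to 8.73 TP10K at ZT14 and 2.52 to 6.38 TP10K at ZT02 in the others (log2 fold change -1.01 ± 0.16, adjusted p = 0.00162). *Syt1* had 5.72 and 6.57 TP10K in *Pdf* cells, below every other neuronal subset at 12.4 TP10K or more (log2 fold change -0.78, adjusted p = 0.00466). *shi* had 3.63 and 2.76 TP10K there, against 4.69 to 9.41 TP10K elsewhere. *Syt12* was nearly absent, with 0 and 1 UMIs in the *Pdf* cells of ZT14 and ZT02.

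The 2 members called higher in *Pdf* cells were *Sytbeta* and *cpx*. *Sytbeta* had 3.03 and 8.45 TP10K in *Pdf* cells, against 1.81 to 4.69 TP10K at ZT14 and 1.82 to 3.76 TP10K at ZT02 in the others (log2 fold change 1.51 ± 0.30, adjusted p = 0.00567), so its level stood above the others at ZT02 and among them at ZT14. *cpx* had 12.01 and 17.2 TP10K, against 8.95 to 15.3 TP10K and 12.6 to 23.4 TP10K (log2 fold change 0.67 ± 0.13, adjusted p = 0.00418). The *Pdf* values of *cpx* lay within both ranges, so its level in TP10K did not stand apart. The subsets were not fitted without scaling beyond UMI totals, and the part of scaling in this call was not tested.

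Few other calls were left among clock subsets in that fit. *CNMa* cells had *cpx* higher, at 15.3 and 23.4 TP10K (log2 fold change 0.67 ± 0.12, adjusted p = 0.00626), and *shi* lower, where 6.03% of all genes were higher and 2.48% lower. *CCHa1* cells had *Syt12*, *lap* and *EndoA* higher (4.03% of all genes), and *lap* was at 4.29 and 4.601 TP10K there, against 1.69 to 3.57 TP10K at ZT14 and 1.08 to 2.84 TP10K at ZT02 elsewhere. *VGlut* cells, those that met no earlier marker, had *Snap25* higher (1.97%), at 8.73 and 6.38 TP10K (log2 fold change 0.68 ± 0.13, adjusted p = 0.0188). Cells with *VGlut* can also lie in the other subsets, so this call does not set glutamatergic clock cells against the rest.

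*NPF* (4.63% of all genes called either way), *AstA* (3.35%) and *AstC* (2.82%) cells and those with no marker (7.7%) had no member called by edgeR in that fit. *Sytalpha* varied widely without a call. It was at 5.28 and 3.80 TP10K in *CNMa* cells at ZT14 and ZT02 and at 0.580 and 4.69 TP10K in *NPF* cells, so its order between subsets differed by library.

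DANs were split in the same way, over 5934 genes, and *cpx* again differed between them. It had 82.8 and 97.6 TP10K at ZT14 and ZT02 in DANs with no subset marker, against 29.6 and 23.3 TP10K in *Dh31* DANs and 29.98 and 31.3 TP10K in *VGlut* DANs. The log2 fold changes against the other subsets were 0.85 ± 0.12 with no marker (adjusted p = 0.000111), -1.08 ± 0.15 in *Dh31* DANs (adjusted p = 5.15e-05) and -0.94 ± 0.14 in *VGlut* DANs (adjusted p = 0.000109). Every DAN subset had more *cpx* at ZT14 than any clock subset, whose levels ran up to 15.3 TP10K. At ZT02 *Dh31* DANs, at 23.3 TP10K, were level with *CNMa* clock cells, at 23.4 TP10K.

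*Ms* DANs, which express the neuropeptide myosuppressin, had 6 members higher (9.29% of all genes) and 3 lower (7.99%). *Sytalpha* had 2.49 and 2.65 TP10K in them, against 0.270 to 0.885 TP10K at ZT14 and 0.212 to 0.908 TP10K at ZT02 in the other DAN subsets, with no overlap (log2 fold change 2.27 ± 0.15, adjusted p = 3.05e-09). *Sytbeta* was higher in the same cells, at 5.44 and 4.42 TP10K against 2.14 to 3.54 TP10K and 1.91 to 2.58 TP10K (1.03 ± 0.10, adjusted p = 5.65e-07). *Syn*, *Sap47*, *Rab3* and *Syt4* were higher with log2 fold changes of 0.35 to 0.64, and *nwk* (-0.53), *brp* (-0.44) and *Syx1A* (-0.38) were lower.

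*VGlut* DANs had 6 members higher (7.06%) and 2 lower (3.29%). *comt* was at 1.97 and 1.77 TP10K in them, against 0.780 to 1.28 TP10K at ZT14 and 0.622 to 1.01 TP10K at ZT02 elsewhere (log2 fold change 1.03 ± 0.10, adjusted p = 1.21e-06), and *Rop*, at 2.15 and 1.58 TP10K, was likewise above every other subset (0.88 ± 0.13, adjusted p = 8.99e-05). *nwk*, *Dap160*, *Snap25* and *brp* were higher as well, by 0.37 to 0.68 on the log2 scale. The lower members were *cpx*, above, and *Sytbeta* (-0.41).

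*Dh31* DANs, which make a diuretic hormone peptide, had 6 members lower (2.51%) and 0 higher (4.95%). *Snap25* was at 10.1 and 9.23 TP10K in them, against 13.9 to 21.1 TP10K at ZT14 and 15.2 to 20.9 TP10K at ZT02 elsewhere (log2 fold change -0.76 ± 0.09, adjusted p = 1.71e-05). *CASK*, *Syn*, *alphaSnap* and *Syx1A* were lower by less, at -0.60 to -0.40. The subset held 26 and 35 cells. With marker minimums doubled it held 1 cell at ZT14 and 13 at ZT02 and was not compared, so its calls were not checked there.

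In the other DAN subsets the counts were smaller. *AstC* DANs had 1 higher, *cpx* (4.87%), and 0 lower (2.28%). *DIP-beta* DANs had 2 higher, *cpx* and *Syx1A* (3.89%), and 0 lower (2.04%), and with marker minimums doubled 0 were called, *cpx* then at 0.25 on the log2 scale. DANs with no marker had 3 higher (5.54%), *cpx*, *nwk* and *shi*, and 1 lower (2.01%), *Sytalpha*, at 0.270 and 0.212 TP10K (log2 fold change -1.73 ± 0.17, adjusted p = 2.06e-06).

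*Nos* DANs had 5 members lower (5.48%), led by *Sap47* at 23.4 and 26.1 TP10K against 32.1 to 55.2 TP10K at ZT14 and 28.5 to 44.4 TP10K at ZT02 (-0.74 ± 0.10, adjusted p = 6.36e-05), and 0 higher (7.67%). *Fer2* DANs had 3 lower (2.98%), *Sytbeta*, *comt* and *Sap47*, and 0 higher (4.48%), and 7 were lower with marker minimums doubled. These were the shallowest subsets, with medians of 3366 and 3456.5 UMIs per cell against 6672 to 10075 in the others, and their marker minimum of 2 TP10K can be met by a single UMI in such cells. Without the library as a block 14 of the 38 calls among DAN subsets were made, among them *Sytalpha* in *Ms* DANs (adjusted p = 6.12e-07), *comt* and *cpx* in *VGlut* DANs and *cpx* in *Dh31* DANs.

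Time of day was followed in the 23 CEL-seq2 libraries of TH-GAL4 cells. Over a 24-hour cosine no member was called. By edgeR's quasi-likelihood F test 0 of 29 members had an adjusted p under 0.05 with a peak to trough of at least 1.5-fold, where 0.885% of 5196 genes were called. At an unadjusted p under 0.05 there were 10 members, where 885 of the 5196 genes were. DESeq2 called 2 members, *Rab3* (adjusted p = 0.0297) and *Sytalpha* (adjusted p = 0.0448), where it called 222 genes. The median fitted log2 peak to trough was 0.36 for the members and 0.41 for all genes. Library names carry a code, and each code covers a pair of time points. With this code as a block, edgeR called 0 members and 7 of 5753 genes, in place of 46 of 5196 genes. The medians were then 0.28 for the members and 0.42 for all genes.

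**Figure D4:**
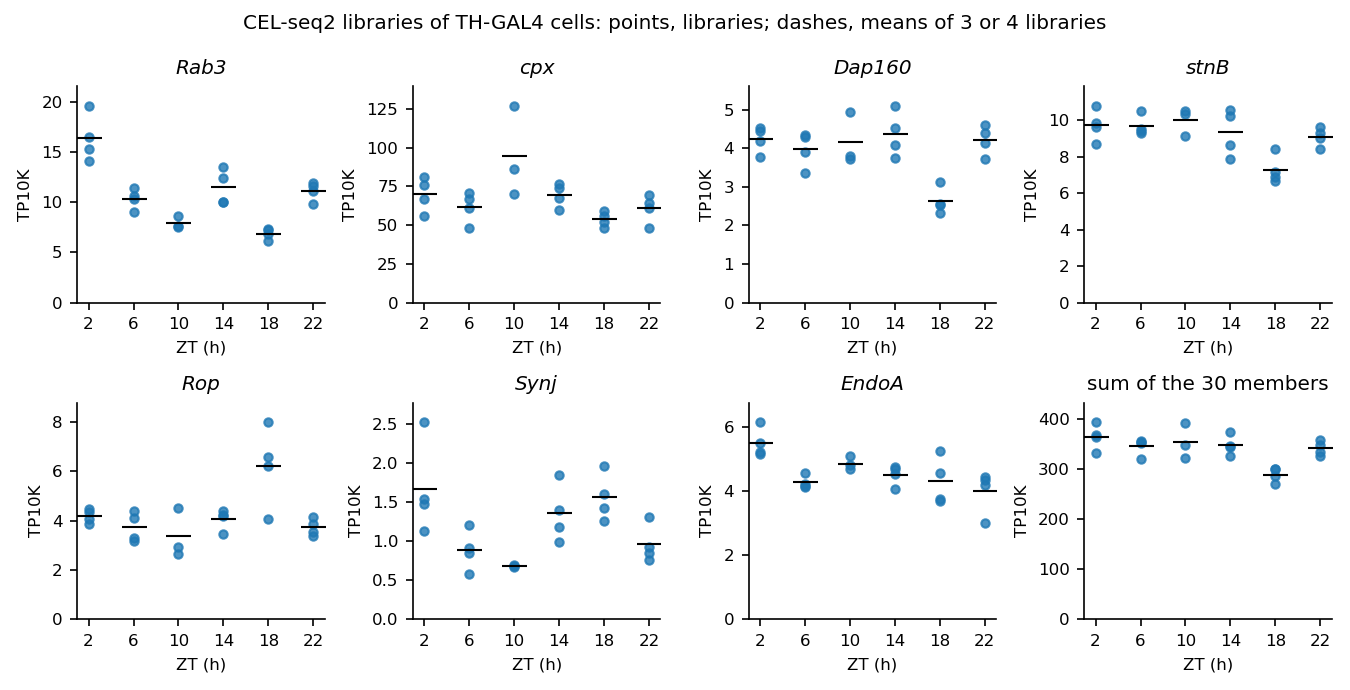
TP10K of 7 members and of the sum of the 30 members with a row in the CEL-seq2 libraries of TH-GAL4 cells by time of day (ZT, h). Points are libraries and dashes are means of 4 libraries (3 at ZT10). *Rab3* was highest at ZT02 (14.1 to 19.6 TP10K), and the members' sum was lowest at ZT18 (270 to 301 TP10K).

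*Rab3* gave the smallest adjusted p of the members (0.111), with a fitted log2 peak to trough of 0.66 and a peak at 2.55 h. Its mean level in TP10K (SD) was 16.4 ± 2.37 at ZT02, 10.4 ± 0.99 at ZT06, 7.94 ± 0.62 at ZT10, 11.5 ± 1.74 at ZT14, 6.89 ± 0.56 at ZT18 and 11.1 ± 0.90 at ZT22 (n = 4, and 3 at ZT10). Every ZT02 library lay above every other library. The mean at ZT14 lay above those of ZT10 and ZT18 on either side of it, an order that a single 24-hour wave does not follow. The means also sorted by the code of the library names. The highest, at ZT02 and ZT14, belonged to the same code, and the lowest, at ZT10 and ZT18, to another. Since every time point has a single code, time of day and code cannot be told apart between codes.

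The next members by adjusted p were *nwk*, which shapes terminals through endocytosis (0.46 on the log2 scale, peak at 1.66 h, adjusted p = 0.111), *Rbp* (0.50, 6.36 h, adjusted p = 0.127), *Sytalpha* (0.97, 4.62 h, adjusted p = 0.133) and *Syt4* (0.42, 3.08 h, adjusted p = 0.143). *Sytalpha* ran from 0.242 to 1.21 TP10K over the 23 libraries with a median of 0.54, and its ZT02 libraries, at 0.620 to 1.21 TP10K, overlapped those of ZT06 and ZT10. *Rbp* was called without ZT18 library 13 (adjusted p = 0.042).

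Time points were then compared in the pairs that share a code in the library names, so that each pair lies within a code. Between ZT14 and ZT02, edgeR's quasi-likelihood F test called no member, and among 6039 genes it called 0% higher and 0.0166% lower. Of the members 5 had an unadjusted p under 0.05, where 376 of the genes had, and DESeq2 called 1, *Rab3*, lower at ZT14 (adjusted p = 0.0037), where it called 15 genes lower. The direction was shared by most members, with 25 of 29 below 0 at a median log2 fold change of -0.10, against 0.00 over all genes. Without scaling beyond UMI totals the medians were -0.05 and 0.05.

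*Rab3* had 10.1, 13.5, 10.0 and 12.5 TP10K at ZT14, against 15.3, 16.5, 19.6 and 14.1 TP10K at ZT02, without overlap (log2 fold change -0.56 ± 0.13, adjusted p = 0.206). *EndoA*, endophilin, which bends membrane for vesicle uptake, had 4.05 to 4.73 TP10K at ZT14 and 5.16 to 6.14 TP10K at ZT02, also without overlap (-0.34, adjusted p = 0.570). *Sytalpha* (-0.83, adjusted p = 0.631), *nwk* (-0.33, adjusted p = 0.715) and *alphaSnap* (-0.29, adjusted p = 0.799) followed. None of these passed the threshold.

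Between ZT22 and ZT06 no member was called either, where 0.182% of genes were higher and 0.0166% lower. By edgeR 1 member had an unadjusted p under 0.05, where 480 genes had, and DESeq2 called 0. *Rbp* had 5.88 to 6.30 TP10K at ZT22 and 7.05 to 8.67 TP10K at ZT06, with no overlap (log2 fold change -0.40, adjusted p = 0.516). *nSyb* (-0.23), *alphaSnap* (0.23), *Syt12* (0.46) and *comt* (0.19) had adjusted p of 0.7497 to 0.864.

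Between ZT18 and ZT10, 3 members were lower and 2 were higher, where 3.74% of genes were lower and 5.46% higher. The members' median log2 fold change was -0.27, against 0.06 over all genes, with 20 of 29 below 0, and the members' sum was 270 to 301 TP10K in the ZT18 libraries, against 323 to 393 TP10K in those of ZT10. Cholinergic genes went the opposite way from the members' sum, at 10.7 to 42.2 TP10K at ZT18 against 2.82 to 4.72 TP10K at ZT10. General neuronal genes were at 52.5 to 77.5 TP10K against 85.3 to 98.9 TP10K. Dopaminergic genes were at 85.1 to 135 TP10K at ZT18 and 108 to 153 TP10K at ZT10. In cells of the DAN gate the dopaminergic sums did not overlap, at 88.8 to 136 TP10K and 148 to 156 TP10K. Glial genes overlapped, at 0.392 to 3.06 TP10K at ZT18 and 0.469 to 1.94 TP10K at ZT10. In cells of the DAN gate alone the cholinergic sums were 10.8 to 41.9 TP10K at ZT18 and 2.81 to 3.64 TP10K at ZT10, and the members' sums 273 to 304 TP10K at ZT18 and 342 to 398 TP10K at ZT10. The part of these shifts in the members' differences was not tested.

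*cpx* had 59.3, 48.0, 52.0 and 55.8 TP10K at ZT18, against 70.4, 127 and 86.5 TP10K at ZT10 (log2 fold change -0.84 ± 0.19, adjusted p = 0.00679). *Dap160* had 2.53, 2.32, 2.55 and 3.11 TP10K at ZT18 and 3.80, 4.94 and 3.73 TP10K at ZT10 (-0.68 ± 0.15, adjusted p = 0.00459). In both genes the ZT18 libraries lay below every ZT10 library. *stnB* was lower by less, at 6.68 to 8.41 TP10K against 9.14 to 10.5 TP10K (-0.47 ± 0.14, adjusted p = 0.0328).

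*Synj*, the lipid phosphatase synaptojanin that strips clathrin coats, had 1.26, 1.43, 1.598 and 1.96 TP10K at ZT18, against 0.685, 0.669 and 0.694 TP10K at ZT10, without overlap (log2 fold change 1.16 ± 0.27, adjusted p = 0.00822). Its ZT02 and ZT14 libraries reached 2.52 and 1.85 TP10K, so the ZT18 level was not outside the range of the day. *Rop* had 4.05, 6.21, 8.001 and 6.597 TP10K at ZT18 and 4.51, 2.63 and 2.95 TP10K at ZT10 (0.87 ± 0.18, adjusted p = 0.00345), and ZT18 library 13 lay below the highest ZT10 library.

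Single libraries decided some of these calls. Without ZT10 library 18, where *cpx* was at 127 TP10K, 2 members were called, *Rop* and *Synj*, and none of *cpx* (-0.54, adjusted p = 0.0899), *Dap160* (adjusted p = 0.0509) or *stnB* (adjusted p = 0.118). *stnB* was also lost without ZT10 library 19 (adjusted p = 0.0948) or ZT18 library 14 (0.0936), 15 (0.0813) or 16 (0.0774), and with no filter on low counts (0.0935). Without ZT18 library 13, 16 members were called, 14 lower and 2 higher, where 551 of 5987 genes were lower and 467 higher. In a fit of the 7 libraries of the pair alone 1 member was called, *Synj* (adjusted p = 0.0357), higher, where 25 of 5570 genes were higher and 8 lower, and DESeq2 called 12, 9 lower and 3 higher, where 426 of 6039 genes were lower and 411 higher.

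In the 10X libraries ZT14 and ZT02 were compared with no test, since each time had 1 library. Ratios carry exact Poisson intervals at 95%, which cover counting error only. Of 29 members, 7 were at least 25% higher at ZT14 in clock cells, where 23.9% of 6890 genes were, and 4 at least 20% lower, where 16.3% were, so the members' shares of 24.1% and 13.8% were near those of all genes. In DANs 1 was at least 25% higher, where 13.2% of 6768 genes were, and 0 were at least 20% lower, where 20% were. The median ratio was 1.09 for members and 1.02 for all genes in clock cells, and 1.07 and 0.96 in DANs.

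**Figure D5:**
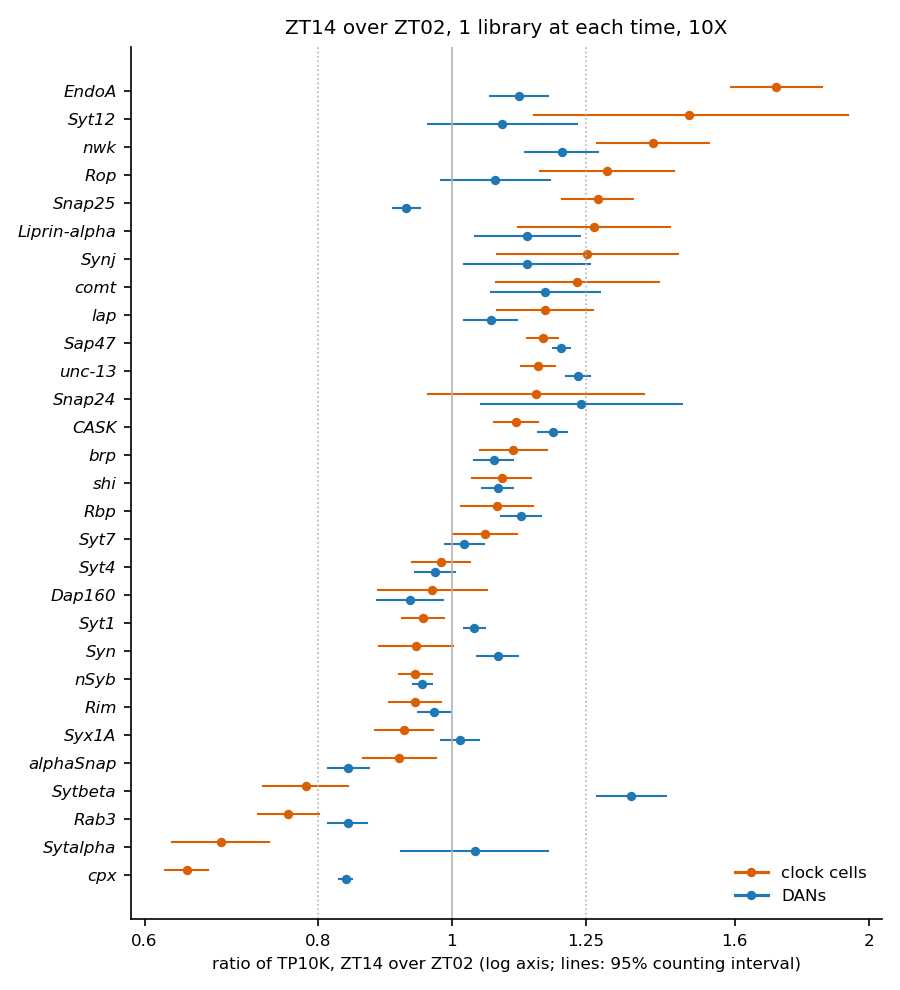
Ratio of TP10K at ZT14 over ZT02 (log axis) of each member in clock cells and in DANs of the 10X libraries, with 95% counting intervals. Dotted lines mark 20% lower and 25% higher. *EndoA* lies at 1.71 and *cpx* at 0.64 in clock cells, and *Sytbeta* at 1.35 in DANs.

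*EndoA* had 3.97 TP10K at ZT14 and 2.31 TP10K at ZT02 in clock cells, a ratio of 1.71 (1.59 to 1.85), and 4.16 and 3.73 TP10K in DANs, a ratio of 1.12, whereas its CEL-seq2 levels above were lower at ZT14 without passing the threshold. *cpx* had a ratio of 0.64 (0.62 to 0.67) in clock cells and 0.84 in DANs. *Sytalpha* stood at 0.68 (0.63 to 0.74) in clock cells, where its level at ZT14 was lower, and near even in DANs, at 1.04.

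*Rab3* was lower at ZT14 in both classes, with ratios of 0.76 (0.72 to 0.80) in clock cells and 0.84 in DANs. The sign was the same in the CEL-seq2 libraries above. *Sytbeta* had a ratio of 0.78 (0.73 to 0.84) in clock cells but 1.35 (1.27 to 1.43) in DANs. The glia-like share of clock cells was larger at ZT14, and without glia-like cells the ratios in clock cells were 1.82 for *EndoA*, 0.69 for *cpx*, 0.73 for *Sytalpha*, 0.81 for *Rab3* and 0.84 for *Sytbeta*, and those of *Rab3* and *Sytbeta* were then less than 20% below even.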

How the data were processed

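The values deposited by the authors were raw UMI counts, made by mapping to dm6 (zUMIs for CEL-seq2, Cell Ranger for 10X, with Cell Ranger 6.0.2 and bcl2fastq 2.20 in the submitters' processing notes), counting exon alignments, filtering cells and removing 10X doublets with Scrublet. Cells were used as deposited, without 91 spike-in rows (1.43% of CEL-seq2 UMIs). A further 2325 columns of per-cell values were not used.

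UMIs were summed per class or subset and library, since cells are not replicates, and tested with edgeR 4.0.16 in R 4.3.3 (TMM, filterByExpr, quasi-likelihood F test, Benjamini-Hochberg adjustment over all genes tested). Calls took an adjusted p below 0.05 with a change of 25% (20% where lower), or 1.5-fold from trough to peak for the cosine. Other fits used DESeq2 1.42.0, other scalings, filters and gates, and cells thinned at random without replacement to 2000 (10X) or 3000 UMIs (CEL-seq2). A subset needed 10 cells per library. Ratios needed 50 UMIs, and shares carry exact Clopper-Pearson intervals for counting error only. Symbols and coordinates came from BDGP6.54. Nothing states that libraries of 1 time point came from separate flies, so p-values measure the spread between libraries, which may be technical.

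All members are accounted for. Those given by value were the called ones of clock cells over DANs (at most 8 each way), the 5 smallest adjusted p of each CEL-seq2 test, the largest call each way per subset and the 3 largest of the other presynaptic genes, and further ones were chosen after their values were seen. Members, lists, gates and subset markers were chosen with earlier results of these data known. Scripts were tested on simulated counts. At a log2 change of 1 (peak to trough for the cosine), changed genes recovered were 43.1% for clock cells over DANs, 41.6% for the cosine and 28.4% for ZT14 over ZT02. At a log2 change of 2 they were 79.1%, 91.4% and 76.8%. Clock cells over DANs also called 29 unchanged genes at a log2 change of 1, where 195 genes had been changed. A member that is not called may thus still differ, and one called in clock cells over DANs may be a false call. Python 3.11.15 with numpy 2.4.6, pandas 2.3.3, scipy 1.17.1 and matplotlib 3.10.9 was used for the rest.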

Additional observations from a re-analysis of the deposited data

Results flagged for a closer look

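In 75 groups of 4 libraries (15 members named from the CEL-seq2 tests at 5 time points), a single library stood far from the other 3 in 2 cases, where chance gives about 1 group in 20. *EndoA* at ZT06 was 4.56 TP10K in library 4, against 4.14 to 4.21 TP10K in the others. *comt* at ZT22 was 2.88 TP10K in library 15, against 3.86 to 4.03 TP10K in the others.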

How the results depend on the processing

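The 15 members called in clock cells over DANs became 9 without the replicate block, and 12 to 19 under the other alternatives. The cosine, with 0 members, gave 2 by DESeq2 and 0 to 1 without 1 library. ZT14 over ZT02 gave 0, and 1 by DESeq2. ZT18 over ZT10, with 5 called, gave 12 by DESeq2, 1 from the libraries of the pair alone and 2 to 16 without 1 library. Of the members 25% higher or 20% lower at ZT14 than ZT02 in the 10X libraries, 11 in clock cells became 6 and 1 in DANs became 2 when cells were thinned. Pairs of member and subset called among clock cells, 125 with the glia-like subset, were 22 without it and 15 with marker minimums doubled. Doubling also left the glia-like and *NPF* clock subsets and the *Dh31* DANs out of the comparison. *brp* in clock cells with no marker turned from 1.31 to -0.16 (doubled) and -0.087 (without glia-like cells) on the log2 scale. The 38 pairs among DANs became 14 without the replicate block. The cause of these changes was not tested.

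CEL-seq2 library numbers did not pair libraries across time points (r of -0.08 to 0.03 over 8 pairs of libraries and 2000 genes), and the cosine with the library number as a replicate block called 0 members. No paired analysis was possible for the pairs of time points because no library number is shared within a pair. The 8 pairs of libraries above all join time points of different codes. With 1 10X library per time, time of day has no replicate there, and clock cells over DANs rests on 2 libraries.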
